A study of Mus musculus with 20 samples.

Results

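The genes described here take fatty acids into heart cells and burn them in the mitochondria. A list of 38 gene symbols was matched to the Ensembl identifiers of the gene count table, and each symbol matched 1 identifier, so that 38 of the 63318 genes in the table were members. All 38 passed the filter on low counts and were among the 19741 genes tested. The tissue was mouse heart, and the measurement was RNA-seq of poly(A) RNA in 4 groups of 4 short-read libraries. MI hearts had a myocardial infarction and were sampled 72 h after the operation, with tissue from the core of the infarct and from around it. MISham hearts had the sham operation of the MI group and gave the same kind of tissue. IR hearts had ischemia for 40 min, which the labels call "LCA" without explaining the abbreviation, with blood then let back in for 72 h (reperfusion), and only core tissue was taken. IRSham hearts had the sham operation of the IR group, with core tissue again. Type of injury and sampled region therefore cannot be told apart in any comparison of MI with IR. The sources used here give no strain, sex or age, and the labels do not say that each library came from its own animal, so the p-values below measure the spread between these libraries.

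A working heart draws most of its energy from long-chain fatty acids. Lipoprotein lipase frees them at the capillary wall, membrane and cytosolic carriers bring them in, and an acyl-CoA synthetase activates them. The carnitine shuttle then carries the acyl group across the inner mitochondrial membrane, where each turn of beta-oxidation cuts the chain and hands electrons to the respiratory chain through the electron transfer flavoprotein. Malonyl-CoA blocks the entry step of the shuttle. Many genes of the pathway are targets of the nuclear receptor PPAR-alpha and of estrogen-related receptors in cardiac muscle.

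Nearly all genes of this list were lower in injured tissue. The list was chosen with earlier results of these data known, so the counts describe the list and not every gene of the pathway. After MI 36 of the 38 members fell, 1 rose and 1 was not called by edgeR's quasi-likelihood test at an adjusted p under 0.05, while 30.2% of all genes tested were called lower and 34.8% higher. After IR the counts were again 36 lower, 1 higher and 1 not called, against 28.2% of all genes called lower and 29.5% higher. The gene that rose in both was Ucp2, which codes for a mitochondrial carrier of the uncoupling protein family, and the gene that was not called was Cpt1a, the carnitine palmitoyltransferase of liver and of many other cell types. The median log2 fold change of the 38 members was -2.28 after MI and -1.80 after IR, while the median of all genes tested was 0.08 and 0.03. All 4 MI libraries lay below all 4 MISham libraries for 36 members (28.6% of all genes), and all 4 IR libraries lay below all 4 IRSham libraries for 36 members (25.4% of all genes). In bulk tissue, fewer cells of a type and less RNA per cell cannot be told apart, and all 10 cardiomyocyte marker genes fell as well, with a median log2 fold change of -2.46 after MI and -1.98 after IR.

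**Figure D1:**
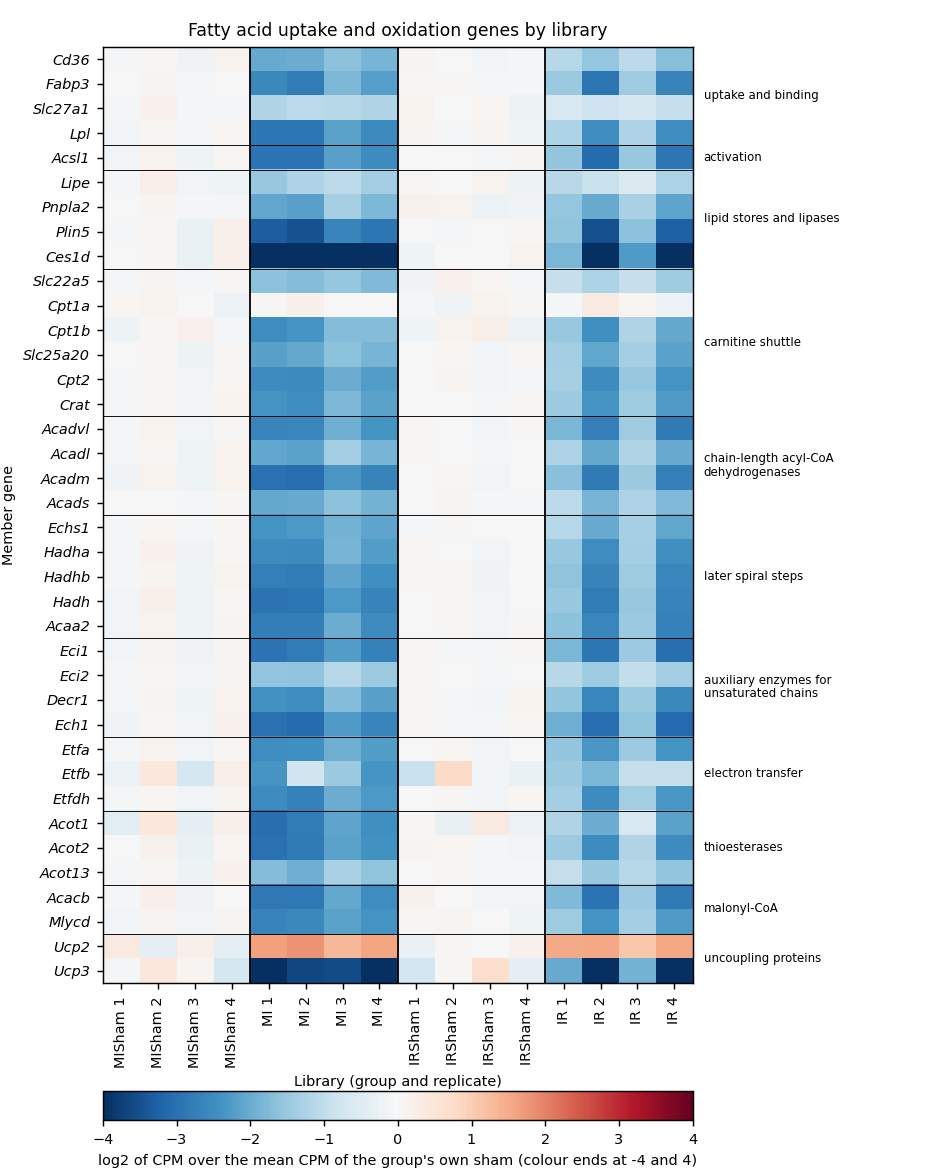
Each row is a member and each column a library, and the colour gives the log2 of its CPM (counts scaled to the TMM-adjusted library size) over the mean CPM of the sham group of the same operation. The MI and IR columns are blue for 36 rows, near white for Cpt1a and red for Ucp2.

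The start-site regions of 4 members show what surrounds the genes that moved differently. Acadm and Ucp3 fell, Cpt1a was not called, and Ucp2 rose. The windows come from RefSeq on GRCm38.p6, run from 250 bases before the start of the gene to 50 bases after it, and are written 5′ to 3′ on the strand of the gene. Capitals mark the letters AGGTCA, a single copy of the direct repeat to which PPAR binds, or TGACCT, the same letters read on the other strand. A single copy is not the whole direct repeat.
Acadm, chr3:153944594-153944893, minus strand: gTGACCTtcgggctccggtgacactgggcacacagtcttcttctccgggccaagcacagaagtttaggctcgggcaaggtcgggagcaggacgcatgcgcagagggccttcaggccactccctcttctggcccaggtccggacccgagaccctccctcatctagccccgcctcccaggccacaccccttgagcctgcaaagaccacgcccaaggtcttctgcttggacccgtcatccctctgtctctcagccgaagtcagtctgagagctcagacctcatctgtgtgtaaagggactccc
Ucp3, chr7:100472741-100473040, plus strand: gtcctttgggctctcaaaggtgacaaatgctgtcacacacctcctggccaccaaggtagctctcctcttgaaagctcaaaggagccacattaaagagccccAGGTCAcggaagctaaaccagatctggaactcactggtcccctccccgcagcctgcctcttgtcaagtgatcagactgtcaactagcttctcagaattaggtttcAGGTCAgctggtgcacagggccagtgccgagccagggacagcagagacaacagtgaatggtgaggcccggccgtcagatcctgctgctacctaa
Cpt1a, chr19:3323051-3323350, plus strand: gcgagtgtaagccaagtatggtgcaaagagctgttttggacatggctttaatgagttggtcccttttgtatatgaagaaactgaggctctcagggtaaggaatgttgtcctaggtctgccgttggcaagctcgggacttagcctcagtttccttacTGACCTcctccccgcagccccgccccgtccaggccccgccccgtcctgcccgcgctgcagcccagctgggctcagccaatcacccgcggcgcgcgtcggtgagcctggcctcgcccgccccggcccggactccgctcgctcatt
Ucp2, chr7:100493108-100493407, plus strand: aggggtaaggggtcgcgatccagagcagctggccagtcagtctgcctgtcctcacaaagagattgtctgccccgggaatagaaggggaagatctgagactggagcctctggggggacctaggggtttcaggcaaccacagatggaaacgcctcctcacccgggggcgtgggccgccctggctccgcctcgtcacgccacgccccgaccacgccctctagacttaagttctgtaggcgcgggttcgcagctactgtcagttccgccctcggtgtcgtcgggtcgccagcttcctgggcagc
The Ucp3 window held the letters at 2 places, 149 and 44 bases before the start, the Cpt1a window held them 94 bases and the Acadm window 249 bases before it, and the Ucp2 window did not hold them. RefSeq windows were matched for 31 of the 38 members, and AGGTCA on either strand was present in 8 of these 31 genes (25.8%: Cd36, Plin5, Cpt1a, Acadvl, Acadm, Echs1, Acacb and Ucp3) and in 18.1% of all 27025 genes with such windows. The direct repeat, 2 copies of AGGTCA with any 1 base between them, was searched on both strands too and was present in 0 of 31 members and 0.0481% of all genes, and the estrogen-related receptor motif TCAAGGTCA, which overlaps AGGTCA, in 0 of 31 members and 0.466% of all genes. These are matches of letters in a short window and say nothing of binding elsewhere.

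Uptake and binding were lower at each step measured. Fabp3, the cytosolic fatty acid binding protein of heart muscle, had the highest level of all members per length of transcript, at 4007 ± 209 TPM (a level per transcript length, summed over the annotated transcripts of the gene; SD, n = 4) in MISham and 3832 ± 179 TPM in IRSham. Its CPM in replicate order was 2950, 3217, 2843 and 3010 in MISham and 504, 431, 859.8 and 651 in MI. In IRSham it was 2872, 2874, 2596 and 2672, and in IR 989, 360.2, 1037 and 429. No injured library reached any sham library, and IR replicates 1 and 3 stood above replicates 2 and 4. Fabp3 was 4.92-fold lower after MI (log2 fold change -2.30 ± 0.30 SE, edgeR adjusted p = 6.09e-06) and 3.91-fold lower after IR (-1.97 ± 0.30, edgeR adjusted p = 3.77e-05).

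Lpl, the lipase that releases fatty acids from circulating triglycerides, showed the widest change of the uptake genes after MI. Its CPM was 6442, 7409, 6797 and 7365 in MISham against 939.8, 950.1, 1583 and 1205 in MI, a 5.99-fold decrease (log2 -2.58 ± 0.27, edgeR adjusted p = 2.90e-07). It was 6142, 5407, 6172 and 5091 in IRSham against 2348, 1010, 2429 and 1028 in IR, a 3.35-fold decrease (log2 -1.74 ± 0.26, edgeR adjusted p = 2.39e-05). Groups did not overlap in either comparison. Cd36, the membrane fatty acid translocase, fell 3.65-fold after MI and 2.52-fold after IR. Slc27a1, a fatty acid transport protein, fell 2.23-fold and 1.71-fold, the smallest decreases among the 36.

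Activation of fatty acids in heart muscle rests largely on Acsl1, the long-chain acyl-CoA synthetase that couples them to coenzyme A. Acsl1 was at 1129, 1347, 1074 and 1289 CPM in MISham and at 157, 156, 268 and 210.2 CPM in MI. The IRSham libraries had 1019, 997, 962 and 1089 CPM, and the IR libraries 337, 119, 355 and 136 CPM. All injured libraries were far below the shams. The decrease was 6.11-fold after MI (log2 -2.61 ± 0.32, edgeR adjusted p = 3.69e-06) and 4.29-fold after IR (log2 -2.10 ± 0.31, edgeR adjusted p = 3.80e-05).

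Genes that hold and release stored triglyceride fell in 4 of 4 cases in both injuries. Ces1d, a carboxylesterase with triglyceride hydrolase activity, had the largest change of all 38 members. It was at 152, 158, 128 and 175 CPM in MISham and at 2.72, 3.66, 8.78 and 4.94 CPM in MI, which is 30.6-fold lower (log2 -4.94 ± 0.75, edgeR adjusted p = 5.01e-05). Its IRSham libraries had 95.3, 108, 107 and 117 CPM and its IR libraries 30.2, 1.95, 22.2 and 2.18 CPM, which is 7.63-fold lower (log2 -2.93 ± 0.69, edgeR adjusted p = 0.00225). The IR libraries thus split into a pair at 22.2 and 30.2 CPM and a pair at 1.95 and 2.18 CPM, and the log2 fold change after IR was -3.62 without IR replicate 1 and -5.69 without IR replicates 1 and 3. Plin5, which coats lipid droplets and ties them to mitochondria, fell 8.23-fold after MI and 4.79-fold after IR. Pnpla2, the adipose triglyceride lipase, fell 3.51-fold and 3.26-fold, and Lipe, the hormone-sensitive lipase, 2.44-fold and 1.91-fold. Adipocyte genes other than Cidea were near 0 in these libraries: 7 of the 8 adipocyte markers did not pass the filter on low counts. Adipoq averaged 0.020 CPM in MISham and 0.061 CPM in IRSham. Cidea alone was tested and fell (log2 -1.11 after MI and -1.28 after IR). The summed CPM of all 8 markers was 23.8 to 33.0 in the sham libraries.

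The carnitine shuttle divided into 5 members that fell and 1 that was not called. Cpt2, which rebuilds acyl-CoA inside the inner membrane, changed most among them after MI. Its CPM was 320.2, 345, 309.7 and 352 in MISham and 58.4, 56.7, 84.4 and 70.8 in MI (4.91-fold lower, log2 -2.30 ± 0.23, edgeR adjusted p = 4.08e-07). In IRSham it was 287, 310.4, 267 and 279.6 and in IR 115, 49.97, 99.8 and 54.6 (3.59-fold lower, log2 -1.84 ± 0.22, edgeR adjusted p = 5.36e-06). Crat, the carnitine acetyltransferase, fell 4.54-fold after MI and 3.49-fold after IR, and Slc25a20, the carnitine-acylcarnitine exchanger, 3.78-fold and 3.24-fold. Slc22a5, which imports carnitine into the cell, fell 3.19-fold and 2.16-fold. Cpt1b, the muscle form of the enzyme at the gate of the shuttle, fell 4.09-fold and 3.32-fold.

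Cpt1a, the other form of that gate enzyme, was at 97.7, 101, 91.7 and 78.7 CPM in MISham and at 95.1, 107, 90.6 and 93.8 CPM in MI. Its IRSham libraries had 90.5, 87.6, 105 and 98.9 CPM and its IR libraries 90.7, 122, 100.4 and 80.6 CPM. The groups overlapped in both comparisons, with log2 fold changes of 0.07 ± 0.11 after MI (edgeR adjusted p = 0.620) and 0.04 ± 0.11 after IR (edgeR adjusted p = 0.757). This absence of a call depended on the scale: with library size alone, which moved the median of all genes to 0.39 after MI and 0.32 after IR, Cpt1a was called higher in both (log2 0.38 and 0.33), and without MISham replicate 4 or without IR replicate 2 its value turned slightly negative (-0.0026 after MI and -0.08 after IR). On the TPM scale, which allows genes to be compared, Cpt1b stood at 242 ± 10.9 and Cpt1a at 17.9 ± 3.32 TPM in MISham, and at 84.2 ± 23.2 and 26.3 ± 2.80 TPM in MI. In IRSham the levels were 224 ± 12.3 TPM for Cpt1b and 21.4 ± 3.87 TPM for Cpt1a, and in IR 87.5 ± 35.4 and 25.3 ± 7.01 TPM. On this scale Cpt1b had the higher mean in every group. In counts divided by exon length the order was the opposite, 39.2 for Cpt1a and 9.67 for Cpt1b in the shams, and the counts and TPM of Cpt1b are set side by side further on.

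**Figure D2:**
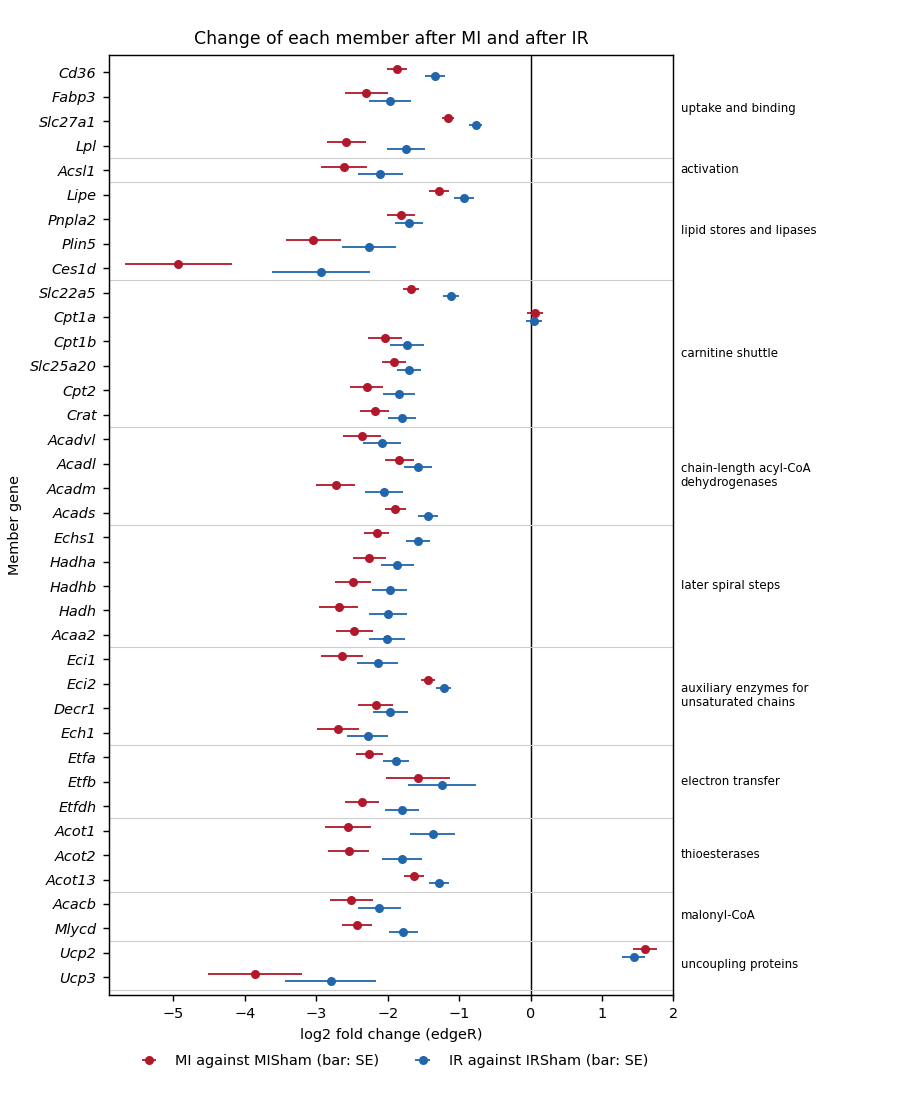
Points are edgeR log2 fold changes of each member after MI (red) and after IR (blue), with bars of 1 SE, in order of role. Ces1d, Ucp3 and Plin5 lie farthest to the left, Cpt1a lies at 0, Ucp2 lies to the right, and the MI point is the lower one for 36 of 38 members.

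All 4 acyl-CoA dehydrogenases, which begin each turn of beta-oxidation for chains of different length, fell in both injuries. Acadm, the medium-chain enzyme, changed most after MI. It was at 1229, 1491, 1182 and 1467 CPM in MISham and at 168, 163, 269 and 211 CPM in MI, which is 6.62-fold lower (log2 -2.73 ± 0.27, edgeR adjusted p = 3.78e-07). Its IRSham libraries had 1180, 1242, 1089 and 1161 CPM and its IR libraries 370.2, 164, 415 and 176 CPM, which is 4.16-fold lower (log2 -2.05 ± 0.27, edgeR adjusted p = 8.59e-06). No injured library overlapped with a sham library. Acadvl, the very long-chain enzyme, fell 5.14-fold after MI and 4.22-fold after IR. Acads, the short-chain enzyme, fell 3.72-fold and 2.71-fold, and Acadl, the long-chain enzyme, 3.57-fold and 2.97-fold. In the gene models of GENCODE M21, 42.9% of the exon bases of Acadvl overlap with Dvl2 on the opposite strand, and no source used here states the strand setting of the counts, so reads of the pair may not be told apart.

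The later steps of the spiral moved within a narrow range. Hadh, the hydroxyacyl-CoA dehydrogenase for shorter chains, was at 666, 829, 629 and 741 CPM in MISham and at 92.9, 94.5, 146 and 112 CPM in MI (6.44-fold lower, log2 -2.69 ± 0.27, edgeR adjusted p = 5.47e-07). In IRSham it was at 582.1, 613, 532 and 592 CPM and in IR at 202, 82.6, 204 and 91.4 CPM (3.99-fold lower, log2 -1.997 ± 0.27, edgeR adjusted p = 1.30e-05). Sham and injured libraries did not overlap. The other 4 genes of this step also fell, with decreases after MI from 4.46-fold for Echs1, the short-chain enoyl-CoA hydratase, to 5.63-fold for Hadhb, and after IR from 2.98-fold for Echs1 to 4.02-fold for Acaa2, the mitochondrial thiolase. Hadha and Hadhb, the 2 subunits of the trifunctional protein and neighbours on chromosome 5, fell 4.78-fold and 5.63-fold after MI and 3.64-fold and 3.93-fold after IR.

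Auxiliary enzymes let unsaturated chains enter the spiral, and all 4 fell. Ech1, an isomerase of dienoyl-CoA, was the third most abundant member per length, at 969 ± 61.1 TPM in MISham, within the spread of Lpl at 1013 ± 74.9 TPM. Its CPM was 1291, 1492, 1314 and 1621 in MISham against 182, 170.1, 299 and 230.4 in MI (6.49-fold lower, log2 -2.70 ± 0.29, edgeR adjusted p = 9.90e-07). It was 1385, 1288, 1259 and 1410 in IRSham against 345, 163, 437 and 156 in IR (4.86-fold lower, log2 -2.28 ± 0.29, edgeR adjusted p = 7.45e-06). IR replicates 1 and 3 stood above replicates 2 and 4. Eci1, an enoyl-CoA isomerase, fell 6.23-fold after MI and 4.42-fold after IR, Decr1, the dienoyl-CoA reductase, 4.50-fold and 3.904-fold, and Eci2, an isomerase found in mitochondria and peroxisomes, 2.71-fold and 2.32-fold.

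Electrons leave the spiral through the flavoprotein subunits Etfa and Etfb and the oxidoreductase Etfdh. Etfdh was at 657, 732, 646 and 756 CPM in MISham and at 121, 107, 177 and 141 CPM in MI (5.11-fold lower, log2 -2.35 ± 0.24, edgeR adjusted p = 4.04e-07). The IRSham libraries had 590.4, 608, 542 and 615 CPM and the IR libraries 231, 102, 226 and 117 CPM (3.49-fold lower, log2 -1.80 ± 0.23, edgeR adjusted p = 8.37e-06). Sham and injured libraries were again apart. Etfa fell 4.78-fold after MI and 3.69-fold after IR.

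Etfb and Cpt1b had far fewer counts than their summed TPM. Etfb had between 7 and 37 counts in a library, and its decrease (2.99-fold after MI, edgeR adjusted p = 0.00542; 2.36-fold after IR, edgeR adjusted p = 0.0352) was the least certain of the 36. The call after IR was lost without IR replicate 1 (edgeR adjusted p = 0.072), IR replicate 2 (0.096), IRSham replicate 2 (0.158) or IRSham replicate 3 (0.052), without IR replicates 1 and 3 (0.096), with library size alone (0.095) and with no filter on low counts (0.095). Yet its summed TPM was among the highest of the members, at 708 ± 29.9 in MISham, 277 ± 42.2 in MI, 689 ± 49.1 in IRSham and 309.6 ± 83.4 in IR. On that scale, tested with limma on log2(TPM + 1), Etfb changed by -1.36 ± 0.15 after MI (limma adjusted p = 9.02e-07) and by -1.19 ± 0.15 after IR (limma adjusted p = 5.92e-06). Counts divided by exon length and scaled to the same total as TPM gave 2.16 for Etfb and 9.67 for Cpt1b over the 8 sham libraries, against 699 and 233 TPM, ratios of 323 and 24.1. For the other 36 members the same ratio lay between 0.0924 and 1.41, with a median of 0.511. The lowest was that of Crat, with 409 in counts per length against 37.8 TPM, and the next lowest was 0.241 for Decr1. In GENCODE M21, 58.2% of the exon bases of Etfb overlap with other genes on the same strand (Gm45233 and Mir7051), and 81.4% of those of Cpt1b with Gm44502, and the part of this overlap in the counts was not tested. Etfb and Cpt1b were singled out after their values were seen.

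**Figure D3:**
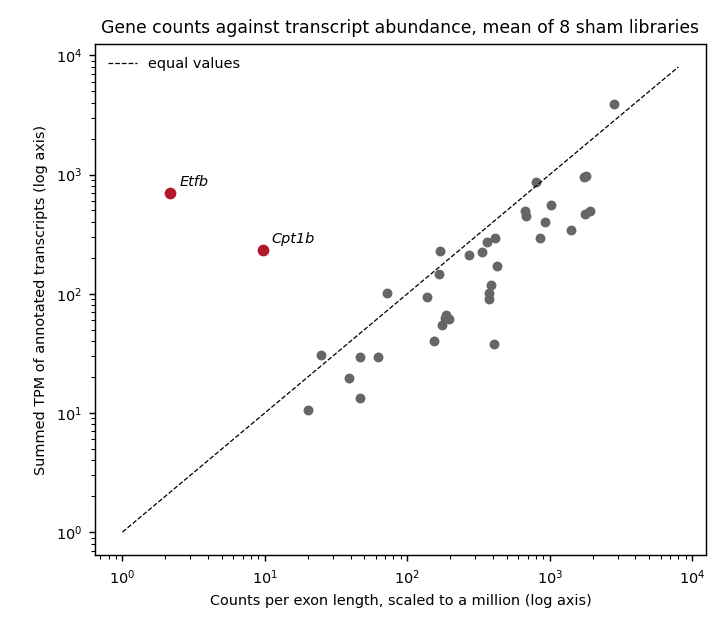
Each point is a member, placed by its counts per exon length, scaled to the same total as TPM, and by its summed TPM, both as the mean of the 8 sham libraries on log axes, with the dashed line at equal values. Etfb and Cpt1b (red) lie far above the band of the other 36 members.

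Thioesterases split acyl-CoA back into free fatty acid and coenzyme A, and all 3 fell. Acot1, the cytosolic form, was at 24.7, 44.1, 25.3 and 38.2 CPM in MISham and at 4.06, 4.72, 7.64 and 6.07 CPM in MI (5.88-fold lower, log2 -2.56 ± 0.32, edgeR adjusted p = 4.39e-06). It was at 17.98, 13.8, 21.8 and 14.4 CPM in IRSham and at 7.37, 4.29, 10.8 and 3.89 CPM in IR (2.58-fold lower, log2 -1.37 ± 0.32, edgeR adjusted p = 0.00167). No library of MI or IR reached its shams. Acot2, the mitochondrial form next to Acot1 on chromosome 12 and close to it in sequence, fell 5.85-fold after MI and 3.48-fold after IR, and reads shared between the pair could have been split by the counting. Acot13 fell 3.10-fold and 2.43-fold.

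Both genes that set malonyl-CoA at the mitochondrion fell, the one that makes it and the one that removes it. Acacb, the acetyl-CoA carboxylase at the outer mitochondrial membrane, was at 604, 734, 577 and 657 CPM in MISham and at 89.3, 89.3, 157 and 116 CPM in MI (5.70-fold lower, log2 -2.51 ± 0.30, edgeR adjusted p = 3.32e-06). Its IRSham libraries had 696, 628, 567 and 571 CPM and its IR libraries 179.6, 79.5, 223 and 86.1 CPM (4.33-fold lower, log2 -2.12 ± 0.30, edgeR adjusted p = 2.27e-05). All MI and IR libraries lay below their shams. Mlycd, the malonyl-CoA decarboxylase, fell 5.41-fold after MI and 3.44-fold after IR.

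The uncoupling proteins moved in opposite directions, although Ucp2 and Ucp3 are neighbours on chromosome 7 with 0 protein-coding genes starting between them. Ucp3, the form of muscle and heart, was at 105, 149, 119 and 67.7 CPM in MISham and at 5.46, 8.91, 9.32 and 6.72 CPM in MI (14.5-fold lower, log2 -3.86 ± 0.66, edgeR adjusted p = 0.000150). It was at 44.1, 77.4, 121 and 57.8 CPM in IRSham and at 18.7, 1.81, 20.4 and 2.48 CPM in IR (6.96-fold lower, log2 -2.80 ± 0.64, edgeR adjusted p = 0.00192). The IR libraries split as for Ces1d, and without IR replicates 1 and 3 the log2 fold change was -5.13. Ucp2, a form found in many cell types including macrophages, was at 114, 68.8, 100.2 and 68.4 CPM in MISham and at 272, 307, 219.9 and 264 CPM in MI (3.03-fold higher, log2 1.598 ± 0.17, edgeR adjusted p = 4.27e-07). It was at 95.9, 119, 116 and 131 CPM in IRSham and at 329, 340.1, 247 and 339.5 CPM in IR (2.72-fold higher, log2 1.44 ± 0.17, edgeR adjusted p = 2.05e-06). All injured libraries were above all shams of the same operation, as for 34.1% of all genes after MI and 26.1% after IR. Per length, Ucp2 stood at 25.0 ± 7.94 and Ucp3 at 34.3 ± 11.1 TPM in MISham, levels within each other's spread, and at 132 ± 26.7 and 3.93 ± 0.91 TPM in MI.

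Macrophage marker genes moved with Ucp2. All 10 of them passed the filter, 10 rose after MI and 9 after IR, and their summed CPM was 560.2 to 1292 in MISham, 2568 to 3627 in MI, 1004 to 1626 in IRSham and 2876 to 5323 in IR. In both injured groups the library with the lowest Ucp2, replicate 3, also had the lowest sum of macrophage markers, and in MISham replicates 1 and 3 were above replicates 2 and 4 in both. The MISham order was not particular to macrophages. Summed CPM there was 80.3, 33.6, 107 and 28.6 for 5 neutrophil markers and 5258, 2028, 7014 and 2970 for fibroblast and myofibroblast markers. In MI and IR, replicate 3 had the highest neutrophil sum of its group (411 and 175). The part of these cell types in the rise of Ucp2 was not tested.

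**Figure D4:**
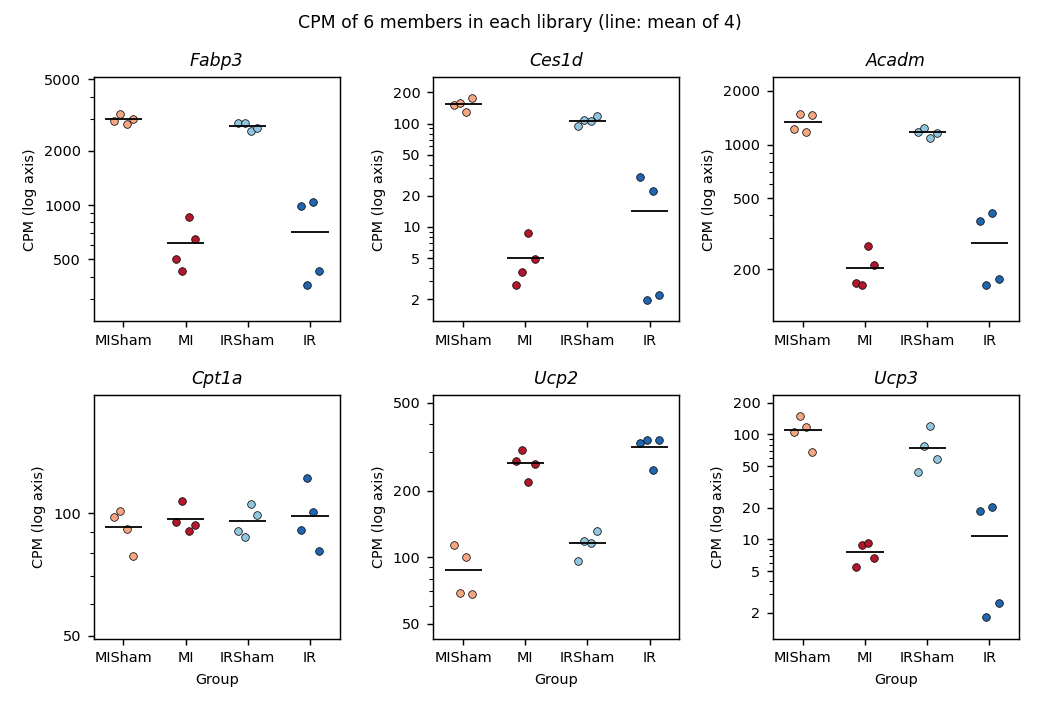
CPM of 6 members in each library on log axes, with 4 points and a line at the mean for each group. Fabp3, Ces1d, Acadm and Ucp3 are lower in every MI and IR library than in the shams, Cpt1a overlaps, Ucp2 is higher, and the IR points of the first 3 and of Ucp3 form 2 pairs.

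The 36 members that fell ordered the libraries in nearly the same way. IR replicates 1 and 3 were both above replicates 2 and 4 in 34 of the 36, MI replicate 3 was the highest MI library in 34, and MISham replicates 2 and 4 were both above 1 and 3 in 31. The median of the 36 stood at 35.7% of the IRSham mean in IR replicate 1, 17.8% in replicate 2, 38.6% in replicate 3 and 19.1% in replicate 4, and at 17.5%, 16.9%, 26.0% and 20.7% of the MISham mean in MI replicates 1 to 4. The IR libraries thus fell into a pair close to each other at the higher level and a pair close to the MI libraries. Without IR replicates 1 and 3 the members' median log2 fold change after IR was -2.40 in place of -1.80, and 20 of the 38 folds moved by over 1.5 times. Cardiomyocyte markers ordered the libraries alike: all 10 passed the filter, and their summed CPM was 35001, 16635, 31386 and 18238 in IR replicates 1 to 4, 15954, 15969, 28360 and 21446 in MI replicates 1 to 4, and 89796 to 104648 in the 8 shams.

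The members were also set against these markers on the TPM scale. The summed TPM of the 38 members was 14053 ± 647 in MISham, 4811 ± 832 in MI, 13209 ± 684 in IRSham and 5622 ± 1946 in IR, which is 1.41%, 0.481%, 1.32% and 0.562% of all TPM. For each 100 TPM of the 10 cardiomyocyte markers there were 36.0 ± 1.87 TPM of members in MISham and 34.0 ± 1.98 in MI, with overlapping ranges (33.3 to 37.4 and 31.95 to 35.8). The corresponding values were 34.1 ± 0.70 in IRSham (33.6 to 35.1) and 32.1 ± 4.90 in IR. IR replicates 1, 2 and 4, at 30.03, 29.6 and 29.4, lay below all 4 IRSham libraries, and replicate 3, at 39.4, lay above them. Set against nuclear-encoded genes of the respiratory chain, the members were lower: 90.4 ± 2.60 TPM for each 100 in MISham and 65.8 ± 2.73 in MI, 87.3 ± 3.29 in IRSham and 72.6 ± 6.41 in IR. All 4 MI libraries (62.0 to 68.5) lay below all 4 MISham libraries (86.6 to 92.2), and all 4 IR libraries (66.2 to 79.5) below all 4 IRSham libraries (84.1 to 91.9). The 12 respiratory chain genes fell with a median log2 fold change of -1.94 after MI and -1.58 after IR, and 7 genes of the TCA cycle, the next stage of fuel oxidation, with -1.92 and -1.50. These ratios are descriptions of sums led by abundant genes, and no test was made on them.

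**Figure D5:**
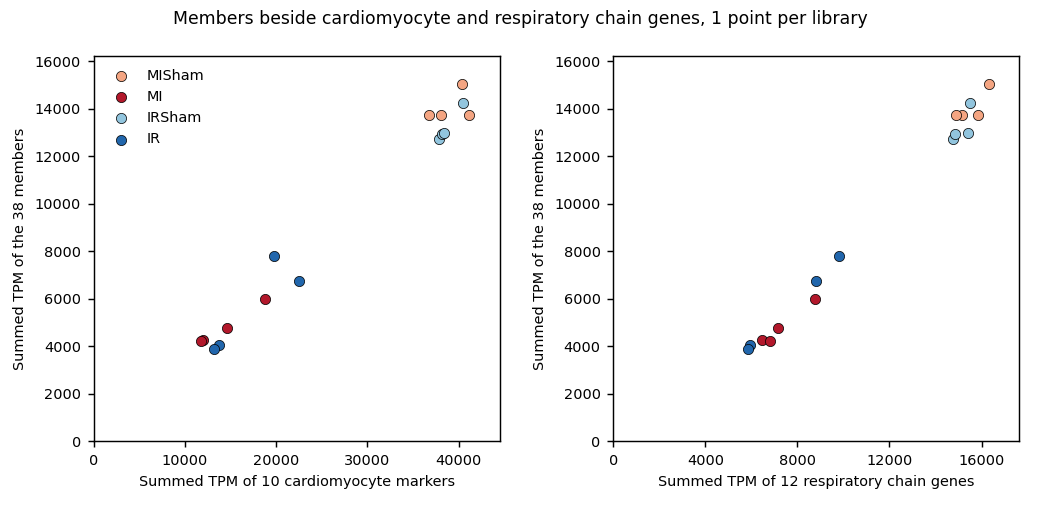
Summed TPM of the 38 members against the summed TPM of 10 cardiomyocyte markers (left) and of 12 respiratory chain genes (right), 1 point per library, with axes from 0. On the left the group means were 32.1 to 36.0 TPM of members for each 100 TPM of markers, and on the right 65.8 in MI and 72.6 in IR against 90.4 and 87.3 in their shams.

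The MI and IR responses were alike in order but differed in size by their point estimates. Across the 38 members the log2 fold changes after MI and after IR had a Pearson r of 0.954 and a Spearman rho of 0.883, a description over genes that share the same 16 libraries. The decrease was the larger after MI for 36 members. When the difference of the 2 responses was tested, 0 of the 38 members were called by edgeR, while 0.192% of all genes were called. At an unadjusted p under 0.05 there were 9 of 38 members, against 14.7% of all genes. The lowest edgeR adjusted p was that of Slc22a5, 0.116, with a difference of -0.56 ± 0.15 on the log2 scale. DESeq2 called 2 members, Slc22a5 (-0.61, DESeq2 adjusted p = 0.022) and Slc27a1 (-0.44, DESeq2 adjusted p = 0.031), and edgeR called Slc22a5 without MISham replicates 1 and 3 (-0.64, edgeR adjusted p = 0.043).

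Between the shams the members were close. MISham had the higher mean CPM for 34 of the 38, with a median log2 difference of 0.20, but 0 were called by edgeR, against 3.2% of all genes. At an unadjusted p under 0.05 there were 3 members, against 14.2% of all genes. Acot1 had the widest gap, 33.1 ± 9.63 CPM in MISham against 17.0 ± 3.68 in IRSham (log2 0.96, edgeR adjusted p = 0.135), and DESeq2 called it (0.99, DESeq2 adjusted p = 0.026). Without MISham replicates 1 and 3 edgeR called Acot1 higher (1.27, adjusted p = 0.039) and Ucp2 lower (-0.75, adjusted p = 0.00529) in MISham. Without IR replicates 1 and 3 it called Acot1 (0.98, adjusted p = 0.033). The MI response, the difference and the comparison of shams share the MISham libraries.

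Summed per gene and tested with limma on log2(TPM + 1), 36 members were lower and 2 higher after MI, against 12.8% and 66.3% of all genes, and 35 lower and 1 higher after IR, against 12% and 62.3%. Single transcripts followed their genes for the most part. The members had 219 annotated transcripts, of which 132 had a mean of at least 1 TPM and were tested with limma on log2(TPM + 1). After MI 84 were lower and 6 higher, against 10.1% and 49% of all transcripts tested, and after IR 69 were lower and 8 higher, against 9.23% and 42.5%. The median over all transcripts tested was 0.60 after MI and 0.48 after IR, while that of the members' transcripts was -1.12 and -0.81, so a rise in TPM is to be read against that shift. The difference of the responses and the comparison of shams gave 0 called transcripts by limma, with 15 and 13 at an unadjusted p under 0.05. Over all transcripts 0.0173% were called lower and 0.0667% higher for the difference, and 0.0198% lower and 0% higher between the shams. The higher transcripts after MI came from Ucp2, Cpt1a, Slc27a1 and Crat, and those after IR from Ucp2, Cpt1a, Slc27a1, Cd36 and Acads. All 3 tested transcripts of Ucp2 rose in both injuries, led by the protein-coding Ucp2-210 (21.3 TPM in MISham, 115 in MI, 29.7 in IRSham and 126 in IR). Cpt1a-201 rose from 14.5 to 24.3 TPM after MI (limma adjusted p = 0.00145) and from 15.2 to 22.7 TPM after IR (limma adjusted p = 0.014), while the gene counts of Cpt1a were not called. Slc27a1-202, a transcript with a retained intron, rose from 1.72 to 6.91 TPM after MI and from 1.16 to 9.87 TPM after IR.

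Transcript usage, the share of a gene's annotated TPM that each transcript holds, was tested for 69 transcripts of 22 members. After MI 8 shares were called (a change of at least 10 points and a limma adjusted p under 0.05), against 5.73% of all shares tested, and after IR 5, against 3.59%. Cd36-206 was the transcript called in both. Its share was 10.6%, 8.82%, 9.83% and 14.1% in MISham and 23.7%, 27.4%, 21.4% and 25.3% in MI (13.6 points higher, limma adjusted p = 0.008), and 7.84%, 10.2%, 7.67% and 11.2% in IRSham and 16.8%, 26.4%, 19.8% and 29.8% in IR (14.0 points higher, limma adjusted p = 0.011). Its own level was 38.6 TPM in MISham and 37.3 in MI (limma adjusted p = 0.849), and it rose from 30.2 TPM in IRSham to 41.4 in IR (limma adjusted p = 0.049), while the other 5 tested transcripts of Cd36 fell in both injuries. These levels are to be read against the median log2 change of all transcripts tested, 0.60 after MI and 0.48 after IR. After IR 42.5% of all transcripts tested were called higher.

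The remaining shares were called in 1 injury each. After MI the share of Lpl-203, annotated as subject to nonsense-mediated decay, was lower (65.5 ± 0.62% in MISham, 50.4 ± 3.87% in MI, limma adjusted p = 0.035). The share of the protein-coding Lpl-201 was higher (34.4 ± 0.57% and 49.4 ± 3.88%, limma adjusted p = 0.036). Both transcripts fell in level. Lpl-203 was at 610 to 724 TPM in MISham and 116 to 190 TPM in MI, and Lpl-201 at 325 to 375 TPM and 129 to 172 TPM. For Slc27a1, the protein-coding Slc27a1-209 lost 15.3 points (after IR the value was -13.0 points, limma adjusted p = 0.057) and Slc27a1-205, with a retained intron, gained 12.6 points. Crat-207 gained 10.99 points and Hadhb-201 gained 10.3 points, while Eci2-211 lost 12.1 points (after IR the value was -12.3 points, limma adjusted p = 0.060). In level Hadhb-201 fell, at 382 to 451 TPM in MISham and 121 to 188 TPM in MI. After IR, Cpt1a-201 gained 18.1 points (72.3 ± 9.56% in IRSham, 90.4 ± 3.51% in IR), Slc27a1-202 gained 10.8 points, Cd36-205 lost 13.8 points and Crat-201 lost 13.2 points. The difference of the responses and the comparison of shams gave 0 called shares, as for 0% and 0.0742% of all shares tested, with 10 and 3 at an unadjusted p under 0.05 in limma, so no share was shown to differ between the injuries. These counts leaned on single libraries: after MI 2 shares were called without MI replicate 1, 4 without MI replicate 4, MISham replicate 2 or MISham replicate 3, and 5 without MI replicate 2, MI replicate 3 or MISham replicate 4. After IR 2 were called without IR replicate 4 or IRSham replicate 1, and 3 without IR replicate 2, IRSham replicate 3 or IRSham replicate 4.

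A wider list of 71 genes of fatty acid handling, covering synthesis, storage, peroxisomal oxidation, other carriers and regulators, showed a mixed picture. Of these, 69 passed the filter, 43 fell and 14 rose after MI, and 45 fell and 16 rose after IR, with 42 lower in both and 13 higher in both. Over all genes tested 30.2% fell and 34.8% rose after MI, and 28.2% fell and 29.5% rose after IR, so the share of the list that rose was below that of all genes in both injuries. Their median log2 fold change was -0.70 after MI and -0.59 after IR. The 5 largest decreases after MI were those of Klf15, a transcription factor of muscle metabolism (-3.07 ± 0.39), Dgat2, which makes triglyceride (-2.97 ± 0.31), Acsl6, a further acyl-CoA synthetase (-2.90 ± 0.41), Ivd, an acyl-CoA dehydrogenase of leucine breakdown (-2.71 ± 0.25), and Ppara, the gene of PPAR-alpha (-2.69 ± 0.30). After IR the same 5 genes were at -2.23, -2.63, -2.11, -2.06 and -2.36 and were called.

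Among the 14 genes that rose after MI, 5 take part in making or desaturating fatty acids, and they are grouped here after their values were seen. Acly, which supplies acetyl-CoA in the cytosol, rose by 0.86 ± 0.11 on the log2 scale, Acaca, the cytosolic acetyl-CoA carboxylase, by 0.87 ± 0.10, Fasn, the fatty acid synthase, by 1.01 ± 0.13, and the desaturases Scd1 and Scd2 by 0.93 ± 0.21 and 1.92 ± 0.17. All 5 rose after IR too, by 0.65, 0.67, 0.49, 1.13 and 1.83. Acaca thus rose while Acacb, its mitochondrial counterpart, fell.

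Several genes that rose are close relatives of members that fell. They are named because they were called higher after MI, while 43 of the 69 tested genes of the wider list fell after MI and 45 after IR. Fabp5 rose by 2.57 ± 0.21 after MI and 2.55 ± 0.20 after IR while Fabp3 fell, at 34.6 ± 3.93 CPM in MISham, 206 ± 31.1 in MI, 47.9 ± 8.49 in IRSham and 279.7 ± 93.2 in IR. The acyl-CoA synthetases Acsl5, Acsl4 and Acsl3 rose by 1.58, 1.17 and 0.31 after MI and by 1.0797, 0.70 and 0.63 after IR while Acsl1 fell. Acsl6, of the same family, fell in both injuries, as given above. Slc27a6, a transport protein, rose by 2.25 and 2.74 from 0.227 CPM in MISham and 0.236 CPM in IRSham. Plin2, a droplet coat protein of many cell types, rose by 1.66 ± 0.19 and 1.52 ± 0.19 while Plin5 fell, and Hilpda, an inhibitor of adipose triglyceride lipase, rose by 1.17 ± 0.18 after MI and was at 0.30 ± 0.19 after IR (edgeR adjusted p = 0.182). Cpt1c, a relative of the shuttle's gate enzymes known mainly from neurons, rose by 1.46 and 1.40, and Acot9, a thioesterase, by 0.86 and 0.69. Markers of macrophages, and 5 of 7 markers of fibroblasts and myofibroblasts in each injury, rose in the same libraries. Of these 7, 1 was called lower after MI and 0 after IR. The part of these cell types in the changes was not tested.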

How the data were processed

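Short-read libraries of mouse heart (MI, MISham, IR and IRSham, n = 4 each) were analysed, while 4 long-read libraries were not used here. Raw counts, whole numbers per gene and library, are what the authors deposited for genes. The deposited transcript table holds TPM per transcript and library. It also has estimated counts, deposited by the authors in a column that names no sample, which were not used. Per the submitters' processing notes, kallisto 0.50.1, featureCounts 2.0.1, HISAT2 2.2.1 and SAMtools 1.7 were used with GRCm39, without a role for each. No strand setting or annotation release is given in the sources used here. Library totals were 57.2 to 63.1 M counts in MI and 24.3 to 31.8 M in the other groups. A gene at the same CPM therefore had more counts in MI, but a gene that fell could still have fewer counts there than in the shams. On average the members held 0.697% of the MI and 0.867% of the IR counts, against 2.70% for MISham and 2.40% for IRSham. Replicates of a group correlated at r = 0.968 to 0.992 across genes (log CPM), and no 2 libraries were identical.

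Identifiers were matched to symbols through a name table (52080 genes) and transcripts to genes through GENCODE M21 (138329 of 163740). That annotation is on GRCm38, so no coordinates were carried to the files. Genes were tested with edgeR 4.0.16 in R 4.3.3 (TMM, filterByExpr with a minimum count of 10, robust quasi-likelihood fit, 1 mean per group over 16 libraries), and p-values were adjusted over 19741 genes by Benjamini-Hochberg. SEs were derived from the log2 fold change and its F statistic. The spread of a gene was estimated over all 4 groups together, so the SE after MI or after IR is not the spread of that comparison's own libraries alone. For 40489 transcripts averaging 1 TPM or more, limma 3.58.1 was run on log2(TPM + 1), a pseudocount of 1. It was also run on 25606 shares, those averaging 5% or more in genes whose summed TPM averaged 5 or more. Fold changes on that scale understate the change of low transcripts. The scripts were tested on simulated data.

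The members, lists and tests were chosen with earlier results of these data known. Values in every library are given for the member with the largest change after MI in each role, those not called lower in both injuries and the 3 with the highest TPM; of the wider list, all genes called higher after MI and the 5 largest decreases are named. Alternatives were DESeq2 1.42.0, RLE and library-size scaling, no filter, 2 groups only, a replicate block, leaving out libraries and, added after seeing the data, summed TPM with limma. Replicate numbers were not taken to pair the libraries.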

Additional observations from a re-analysis of the deposited data

Results flagged for a closer look

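In each of the 4 groups the highest or lowest library of every member was compared with its 3 companions by Dixon's ratio of gap to range against its 95% critical value. Of 152 groups checked, 2 exceeded it, where chance alone gives about 1 in 20 independent groups. The 152 groups are not independent, since the members share the same 16 libraries. The ratio also cannot flag a split of a group into pairs, such as that of the IR libraries, so the count is no measure of how even the libraries were. Slc27a1 was at 366 CPM in MISham replicate 2, above the other 3 MISham libraries at 312 to 321 CPM. Ucp2 was at 247 CPM in IR replicate 3, below the other 3 IR libraries at 329 to 340.1 CPM, and the same library had the lowest summed CPM of macrophage markers in its group.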

How the results depend on the processing

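The counts of members called after MI (37 to 38) and after IR (36 to 37) stayed close to 37 under all alternatives. Of the alternative values of single members, 1887 kept their direction and call, 8 lost and 3 gained a call, and 2 reversed: Cpt1a after MI was -0.00257 without MISham replicate 4, and after IR -0.0762 without IR replicate 2. These alternatives include fits without libraries of the other operation. Such libraries do not enter the response itself, so these fits could move a value only a little and the count of kept values overstates stability. Leaving out 1 library, Cpt1a lay between -0.00257 and 0.114 after MI and between -0.0762 and 0.13 after IR. Summed TPM with limma, chosen after seeing the data, gave 36 lower and 2 higher after MI (Cpt1a was called, 0.54) and 35 lower and 1 higher after IR (Lipe was not called, -0.30, limma adjusted p = 0.082). On that scale the median of all genes was 0.70 after MI and 0.57 after IR, and the members' median lay 2.26 and 1.82 below it, against 2.36 and 1.83 in edgeR. The members' median itself was -1.55 after MI and -1.25 after IR, against -2.28 and -1.80 in edgeR. Of the 38 folds, 34 after MI and 12 after IR moved by over 1.5 times, so the fold sizes depend on the scale more than the calls do. For members whose responses differ, DESeq2 called 2 and edgeR called 1 without MISham replicates 1 and 3. Between the shams DESeq2 called 1, and edgeR called 1 without IR replicates 1 and 3 and 2 without MISham replicates 1 and 3. Called shares after MI numbered 5 with a minimum summed TPM of 1, and leaving out 1 library gave 2 to 6 after MI and 2 to 7 after IR. Same-numbered libraries had correlations of deviations from -0.15 to 0.23, so the numbers were not taken to pair them. With a replicate block 37 members were called after MI, 37 after IR, 0 for the difference and 0 between the shams, with 91 and 75 transcripts and 5 and 5 shares. Etfb had at most 37 counts in a library, also in the more deeply sequenced MI group, and the cause of its low counts was not tested.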
